A study of Schizosaccharomyces pombe with 4 samples.

Results

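The left subtelomere of chromosome 2 of the fission yeast Schizosaccharomyces pombe was covered by 275 of the 41551 genomic probes on the array. They are the probes that the array names to chromosome 2 at a position below 100000. The first lay at 300 and the last at 99900, so distance is counted from the end of the tiling and not from the telomere itself. In the text, distances in kb at this end are positions of the array design, whereas the figures of single probes count from the first probe. H3K9me3, trimethylation of lysine 9 of histone H3, was measured by chromatin immunoprecipitation followed by hybridisation to Agilent arrays of 60-base probes. Exponentially growing cells were fixed with paraformaldehyde, and sheared chromatin was precipitated with an antibody to the mark. Precipitated DNA was labelled with Cy5 and whole-cell extract DNA, the input, with Cy3. There were 4 arrays, 1 for each of the strains WT, IRD1, IRD2 and IRD3. The labels do not say which alleles the IRD strains carry. All 4 titles also bear the tag REIID, whose meaning is not given in the sources used here. IRD1 and IRD3 were assigned from their titles, because the genotype and antibody entries of these samples are exchanged.

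H3K9 methylation marks heterochromatin, the condensed form of chromatin in which most genes are silent. In fission yeast the mark is placed by the methyltransferase Clr4 and bound by chromodomain proteins such as Swi6, the relative of HP1. At the chromosome ends it covers the subtelomere, where telomere-binding proteins and RNA interference at repeats of the outermost helicase genes both bring Clr4 to the DNA. Subtelomeres share long stretches of near-identical sequence, so the signal of a probe there may come from more than 1 chromosome end.

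The level of the mark is given below as log2 of precipitated over input signal, with the median over all genomic probes of an array set to 0. A level of 1 is therefore a signal ratio 2 times the array median. Input alone is given in the same way. With 1 array per strain there is no replicate and no test, and a difference between strains cannot be told apart from a difference between cultures or hybridisations. The noise SD of a single probe was 0.27 (WT), 0.30 (IRD1), 0.25 (IRD2) and 0.25 (IRD3). It was estimated from the differences between neighbouring probes with levels between -2 and 2. The difference of a probe from WT had an SD of 0.32 (IRD1), 0.33 (IRD2) and 0.27 (IRD3) over probes whose WT level lay in that range. Where 3 values stand in a row without names, they are those of IRD1, IRD2 and IRD3, in that order. All 3 comparisons use the same WT array, so an unusual value on that array enters each of them. Positions are those of the array design, whose genome build is not given in the sources used here, and no genes are named for that reason.

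All of the outermost probes belonged to a special class. The tiling step was 300 bases, and 275 of the 333 positions held a probe. Below 29400 only 48 of 97 positions did, and the names of all 48 ended in f (46 probes) or m (2 probes), suffixes that the files do not explain. From 29400 inward, 34 of 227 probes (15%) had such a suffix, and of all genomic probes 4.08% did. Across the genome the median input of probes with m was 1.88 in WT and that of probes with f 0.44, against -0.02 for the other probes. Probes of this class thus read more input DNA than others. Outlier spots removed 5 of the 275 probes in WT, 31 (IRD1), 7 (IRD2) and 31 (IRD3), and 214 probes had a level on all 4 arrays. The probe at 90600 had none on any array. Input was well above background at all 275 probes, and the lowest input was -3.06, in IRD1.

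In WT, H3K9me3 was high over the first 15.6 kb, near the array median to about 29 kb, and below it farther in. The IRD strains shared this plan and stood above WT at 3 places. These were the outermost stretch from 300 to 5100, the first probes beyond the edge from 15900 to 18600, and a narrow stretch from 76200 to 77100. Over the whole subtelomere the median level was -0.59 (WT), -0.44 (IRD1), -0.66 (IRD2) and -0.53 (IRD3). The median difference from WT was 0.09 (IRD1), -0.00 (IRD2) and 0.08 (IRD3), so the IRD strains stood apart from WT in few places and not along the whole length.

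**Figure D1:**
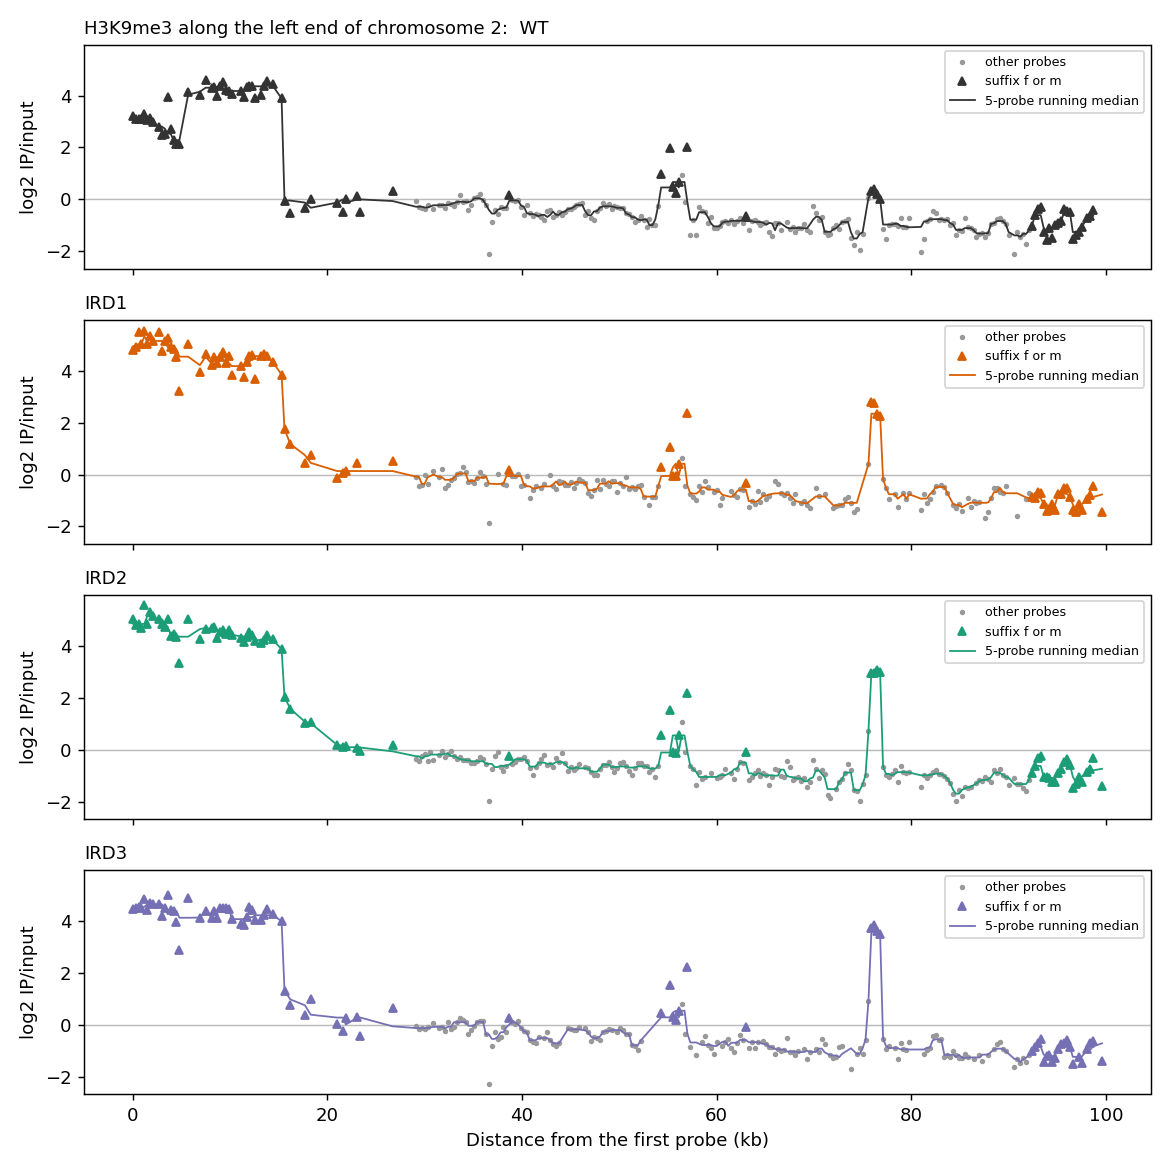
H3K9me3 level (log2 of precipitated over input, array median at 0) of each usable probe against the distance from the first probe in kb, with 1 panel per strain. Triangles are probes with suffix f or m, dots are the other probes and the line is the running median of 5 probes. All 4 arrays fall steeply after the probe at position 15600, and the peak near 76 kb stands above 2 in the 3 IRD strains and below 1 in WT.

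Single probes were compared by a rule of size, a difference of at least 1 from WT. In IRD1, 23 of 242 probes (9.50%) were higher by that much, against 0.595% of all genomic probes. In IRD2, 25 of 264 probes (9.47%) were higher, against 0.536%. In IRD3, 22 of 241 probes (9.13%) were higher, against 0.657%. The share was thus more than 10 times that of the genome in each strain. Lower by at least 1 were 0 probes of the subtelomere in each strain, against 0.0996%, 0.323% and 0.112% of all probes, and 0 in all 3 strains at once, against 0.0381%. Of the 214 probes measured on all 4 arrays, 21 were higher in all 3 IRD strains, against 0.372% of genomic probes. The comparisons share the WT array, so this count adds nothing to the 3 above and serves to name the probes. They were 15 probes between 300 and 4800, those at 15900 and 16500, and the 4 from 76200 to 77100. All 21 had suffix f. Suffix f or m marked 29.8% of the probes of the subtelomere and 4.08% of all genomic probes. The genome shares given here are over all probes and were not taken within that class.

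The outermost 16 probes, from 300 to 5100, carried less of the mark in WT than the probes next to them and more in the IRD strains. Their median was 3.01 in WT, which is 8.06 times the array median, with single probes between 2.13 and 3.94. In IRD1 it was 5.02, or 32.5 times the array median, with probes between 3.24 and 5.51. In IRD2 it was 4.84, with probes between 3.34 and 5.57, and in IRD3 4.50, with probes between 2.90 and 4.99. The ranges of WT and the IRD strains overlapped, but at every one of the 16 positions each IRD strain was above WT. The median difference was 2.19 (quartiles 1.88 to 2.41, IRD1), 2.0 (1.70 to 2.21, IRD2) and 1.55 (1.38 to 1.76, IRD3). At the very first probe, 300, the level was 3.19 (WT), 4.78 (IRD1), 5.03 (IRD2) and 4.47 (IRD3).

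Within this stretch the level at 4800 was below that at 300 on all 4 arrays, without a steady decline between them. WT lay below the IRD strains throughout. At 1500 the level was 3.31 (WT), 5.51 (IRD1), 5.57 (IRD2) and 4.86 (IRD3). At 4800 it was 2.13 (WT), 4.54 (IRD1), 4.35 (IRD2) and 3.95 (IRD3). The probe at 3900 was the highest of the stretch in WT and IRD3, with 3.94 (WT), 5.27 (IRD1), 5.03 (IRD2) and 4.99 (IRD3). The probe at 5100 was the lowest of the stretch in all 3 IRD strains. It read 2.13 (WT), 3.24 (IRD1), 3.34 (IRD2) and 2.90 (IRD3). The next probe inward, 6000, read 4.15 (WT), 5.01 (IRD1), 5.02 (IRD2) and 4.89 (IRD3). The step up between these neighbours was 2.02 (WT), 1.78 (IRD1), 1.68 (IRD2) and 1.99 (IRD3). Its similar size on the 4 arrays rested on the probe at 5100, which had suffix m. From 4800 to 6000 the step was 2.02 (WT), 0.47 (IRD1), 0.67 (IRD2) and 0.94 (IRD3), so it was smaller in the IRD strains.

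The input of the outermost stretch differed from WT in the direction opposite to the level. Its median was 0.79 (WT), 0.21 (IRD1), 0.31 (IRD2) and 0.31 (IRD3). All 16 probes had less input in each IRD strain than in WT, by a median of -0.58 (IRD1), -0.48 (IRD2) and -0.46 (IRD3). Over all probes the SD of the input difference was 0.18 (IRD1), 0.15 (IRD2) and 0.13 (IRD3). The precipitated signal alone was higher than in WT by 1.49 (IRD1), 1.40 (IRD2) and 1.09 (IRD3). Both channels thus differed, the precipitated signal by more than the input. With loess within each array, a normalization that pulls strong signals toward the array's trend, the difference was 1.94 (IRD1), 0.05 (IRD2) and 1.0 (IRD3).

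Across the subtelomere, input was lower than in WT by at least 0.3 at 31 probes in IRD1, against 6.43% of all genomic probes, and the high background share of this array leaves little contrast. The same count was 20 in IRD2, against 0.773%, and 20 in IRD3, against 0.505%. A rule chosen after the data were seen then looked for runs of at least 4 probes whose running median of input was lower by 0.3 or more in all 3 IRD strains. It found 8 such runs in the genome, of which 3 lay on numbered chromosomes. The outermost stretch described here was one of them. The second lay on chromosome 1 from 23400 to 27900, also with 16 probes, all with suffix f or m. Its level was 2.85 (WT), 4.97 (IRD1), 4.96 (IRD2) and 4.44 (IRD3), and its input differed from WT by -0.60, -0.53 and -0.47. The third was the last 5 probes of the right end of chromosome 2, from 4509300 to 4510500. There the level was 2.47 (WT), 4.83 (IRD1), 4.46 (IRD2) and 4.38 (IRD3). The remaining runs lay on the contigs pNSU21, pNSU64, pNSU65, pNSU70 and pNSU77, and all their probes had suffix f or m. Their median WT levels lay between 2.92 and 4.01. The IRD strains were higher there by medians of 0.59 to 1.51, with input differences of -1.08 to -0.39. Whether these runs read the same repeated DNA was not tested, since the files hold no probe sequences.

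The next stretch, from 6000 to 15600, was evenly enriched, and the 4 strains lay close together. Its 22 probes had a median of 4.27 (WT), 4.43 (IRD1), 4.43 (IRD2) and 4.25 (IRD3), between 19.0 and 21.5 times the array median. The median difference was 0.05 (quartiles -0.08 to 0.24, IRD1), 0.17 (0.04 to 0.33, IRD2) and 0.05 (-0.15 to 0.13, IRD3). Higher than WT were 14 (IRD1), 18 (IRD2) and 13 (IRD3) of the 22 probes. No probe of the 22 differed from WT by 1 or more. With loess the IRD2 difference was -0.93. Input also differed little, by 0.01 (IRD1), -0.10 (IRD2) and -0.04 (IRD3). The 3 highest WT levels of the outer 20 kb lay in this stretch, at 7800 (4.61), 14100 (4.55) and 9600 (4.53).

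**Figure D2:**
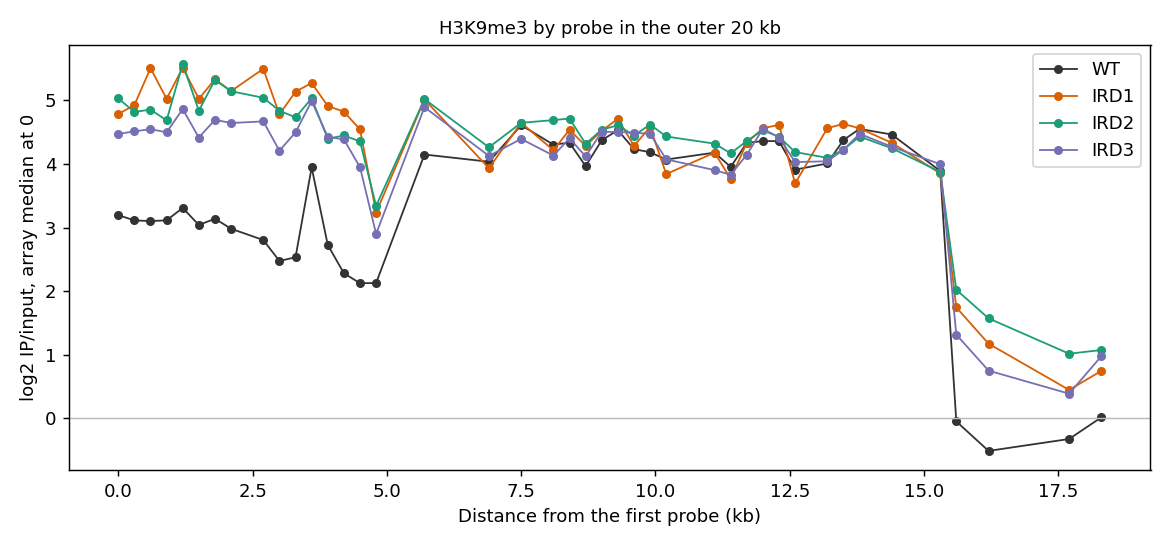
H3K9me3 level (log2 of precipitated over input, array median at 0) of each probe of the outer 20 kb against the distance from the first probe in kb, 1 line per strain. WT lies below the 3 IRD strains over the first 5 kb. From the second probe after that stretch all 4 lines run close together up to the edge at position 15600, and WT drops to the lowest level after the edge.

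The level fell sharply between 15600 and 15900 on all 4 arrays, in WT to the array median and in the IRD strains to a level still above it. At 14700 the level was 4.46 (WT), 4.33 (IRD1), 4.25 (IRD2) and 4.27 (IRD3). At 15600 it was 3.89 (WT), 3.85 (IRD1), 3.88 (IRD2) and 4.0 (IRD3), so the last enriched probe was the same for all strains to within the noise. The 3 probes before these, at 13500, 13800 and 14100, likewise lay between 4.01 and 4.63 on all 4 arrays. At 15900 the level was -0.05 (WT), 1.74 (IRD1), 2.02 (IRD2) and 1.32 (IRD3). The step across the edge was -3.94 (WT), -2.11 (IRD1), -1.85 (IRD2) and -2.68 (IRD3). It was the steepest in WT.

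The IRD strains were lower at 18000 than at 15900 and above WT at all 4 probes up to 18600. At 16500 the level was -0.51 (WT), 1.18 (IRD1), 1.57 (IRD2) and 0.75 (IRD3). At 18000 it was -0.32 (WT), 0.45 (IRD1), 1.02 (IRD2) and 0.39 (IRD3). WT was lowest of the 4 at both, and these probes with 15900 were the 3 lowest of the outer 20 kb in WT. At 18600 the level was 0.02 (WT), 0.75 (IRD1), 1.08 (IRD2) and 0.98 (IRD3). At 21300 it was -0.12 (WT), -0.13 (IRD1), 0.19 (IRD2) and 0.01 (IRD3), a spread no larger than the SD of a probe's difference. Over the 4 probes from 15900 to 18600 the median difference from WT was 1.23 (IRD1), 1.70 (IRD2) and 1.11 (IRD3). Input there differed by -0.02, -0.15 and 0.01, so here the difference lay in the precipitated signal, which was higher by 1.30, 1.53 and 1.17. With loess the differences of IRD2 and IRD3 were 1.30 and 0.77.

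How far the mark reached depended on the threshold. Running medians of 5 probes stayed at or above 2 as far as 15.6 kb (WT), 15.6 kb (IRD1), 15.9 kb (IRD2) and 15.6 kb (IRD3). At a threshold of 1 the reach was 15.6 kb (WT), 16.5 kb (IRD1), 18.6 kb (IRD2) and 15.9 kb (IRD3). At a threshold of 3 the 3 IRD strains reached 15.6 kb and WT 2.1 kb, since the WT running median dipped under 3 within the outermost stretch. With normexp background correction the WT reach at a threshold of 2 was 4.2 kb. With loess it was 0.0 kb (WT), 15.6 kb (IRD1), 0.3 kb (IRD2) and 5.1 kb (IRD3), so the likeness of the 4 strains at this threshold does not hold under either.

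From 20 kb inward the level declined slowly to below the array median. The 6 probes from 21300 to 27000 had a median of -0.06 (WT), 0.13 (IRD1), 0.12 (IRD2) and 0.15 (IRD3). The 83 probes from 29400 to 54300 had -0.35 (WT), -0.35 (IRD1), -0.52 (IRD2) and -0.22 (IRD3). The 61 probes from 57600 to 75600 had -0.94 (WT), -0.86 (IRD1), -1.0 (IRD2) and -0.88 (IRD3). Levels below 0 mean less precipitated DNA per input than at the median probe of the genome. Mitochondrial probes, whose DNA has no histones, had medians of -1.66 (WT), -1.74 (IRD1), -1.98 (IRD2) and -2.20 (IRD3), a value per array that rests on other probes with far more input.

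The decline can be read from the share of probes at or below -0.5, which over the genome was 24.6% (WT), 21.7% (IRD1), 26.5% (IRD2) and 23.9% (IRD3). From 20 to 40 kb the share was 7.5% (WT), 5.56% (IRD1), 22.0% (IRD2) and 7.5% (IRD3). From 40 to 60 kb it was 45.3% (WT), 33.3% (IRD1), 71.0% (IRD2) and 39.2% (IRD3). From 60 to 80 kb it lay between 83.3% and 90.8% on the 4 arrays, and from 80 to 100 kb between 89.8% and 96.2%. Low probes thus went from scarcer than in the genome to nearly all of the probes. IRD2 stood apart in parts of this range. Its median difference from WT was -0.35 at 35 to 40 kb and -0.35 at 45 to 50 kb, against -0.03 and -0.08 in IRD1 and 0.03 and 0.10 in IRD3. In IRD2, 4 of 17 probes were above WT at 35 to 40 kb and 0 of 16 at 45 to 50 kb (quartiles -0.46 to -0.26). Between them, at 40 to 45 kb, the IRD2 difference was -0.02, with 7 of 16 probes above WT. It was -0.00 at 30 to 35 kb and -0.10 at 50 to 55 kb.

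Levels went weakly with input. Between 29400 and 92400 the level of a probe correlated with its input with Pearson's r of 0.37 in WT (201 probes), 0.24 in IRD1 (175), 0.18 in IRD2 (198) and 0.28 in IRD3 (175). Over all genomic probes with a WT level under 2, r was lower, at 0.12 (WT), 0.06 (IRD1), 0.02 (IRD2) and 0.09 (IRD3). Input is the denominator of the level, so the points of each array share a measurement, and neighbouring probes share DNA fragments. The lowest WT level of the whole subtelomere came from a probe with much input. At 36900 the level was -2.12 (WT), -1.88 (IRD1), -1.97 (IRD2) and -2.28 (IRD3), and the input was 2.32, 2.26, 2.78 and 2.66. It was low on all 4 arrays.

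A small rise in the profile lay from 54600 to 57300. Its 8 probes, 6 of them with suffix f or m, had a median of 0.80 (WT), 0.35 (IRD1), 0.55 (IRD2) and 0.51 (IRD3). The median difference from WT was -0.31 (IRD1), -0.25 (IRD2) and -0.16 (IRD3). Above WT were 1 (IRD1), 3 (IRD2) and 1 (IRD3) of the 8 probes. At 55500 the level was 1.98 (WT), 1.06 (IRD1), 1.52 (IRD2) and 1.53 (IRD3), and WT was the highest. At 57300 it was 2.0 (WT), 2.37 (IRD1), 2.17 (IRD2) and 2.24 (IRD3), and WT was the lowest. This was the only WT probe beyond 20 kb at or above 2. In the whole subtelomere 39 (WT), 43 (IRD1), 44 (IRD2) and 43 (IRD3) probes were at or above 2, against 2.43%, 2.34%, 2.31% and 2.43% of all probes. Beyond 20 kb there were 1 such probe in WT and 5 in each IRD strain.

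The clearest inner difference was a peak from 76200 to 77100 that was high in the IRD strains and nearly flat in WT. At 76200 the level was 0.32 (WT), 2.79 (IRD1), 2.95 (IRD2) and 3.72 (IRD3). At 76500 it was 0.39 (WT), 2.76 (IRD1), 2.97 (IRD2) and 3.85 (IRD3). At 76800 it was 0.22 (WT), 2.34 (IRD1), 3.08 (IRD2) and 3.61 (IRD3). IRD3 was the highest at each of these probes, and no IRD value overlapped WT. At 77100 the level was 0.00 (WT), 2.27 (IRD1), 2.98 (IRD2) and 3.49 (IRD3). The median of the 4 probes was 1.21 times the array median in WT, 5.87 times in IRD1, 7.87 times in IRD2 and 12.7 times in IRD3. The differences were 2.32, 2.74 and 3.42 on the log2 scale.

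The level at the peak stood well above that of its neighbours. The probe before it, 75900, read 0.06 (WT), 0.41 (IRD1), 0.72 (IRD2) and 0.92 (IRD3). The probe after it, 77400, read -1.12 (WT), -0.17 (IRD1), -0.65 (IRD2) and -0.53 (IRD3). From 77100 to 77400 the step in level was -1.12 (WT), -2.44 (IRD1), -3.63 (IRD2) and -4.02 (IRD3). WT also had a shallow local rise at the peak, since its level was -0.94 over the probes from 57600 to 75600. All 4 probes of the peak had suffix f, whereas 75900, 77400 and 77700 had no f or m. These flanking probes were also above WT, by 0.34, 0.66 and 0.86 at 75900 and by 0.95, 0.47 and 0.59 at 77400. A smaller difference was thus also read at 75900 and 77400, which lie outside that class. Input differed from WT by -0.21, -0.30 and -0.41 at 75900, and by -0.39, -0.06 and 0.02 at 77400. Neighbouring probes share DNA fragments, and whether the mark itself reached past the peak was not tested. At 77700 the differences were 1.02, 0.55 and 0.60, with levels of -1.54 (WT), -0.51 (IRD1), -0.98 (IRD2) and -0.94 (IRD3). The medians from 77400 to 92400 were -1.06 (WT), -0.92 (IRD1), -1.09 (IRD2) and -1.06 (IRD3). At 77700 WT thus lay below its median there and IRD1 above its own, while IRD2 and IRD3 lay near theirs. From 75600 to 75900 the level had already stepped up by 1.70 in IRD2 and 1.49 in IRD3, while 75600 had no value in WT and IRD1. Whether these probes read DNA elsewhere in the genome as well was not tested.

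Input at the peak was lower in the IRD strains, as in the outermost stretch. The median input difference was -0.26 (IRD1), -0.38 (IRD2) and -0.58 (IRD3), and all 4 probes were lower in each strain. Their order was that of the level, with IRD3 farthest from WT in both. The precipitated signal alone was higher than in WT by 2.07 (IRD1), 2.39 (IRD2) and 2.88 (IRD3). With loess the difference in level was 1.81 (IRD1), 1.68 (IRD2) and 2.49 (IRD3).

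**Figure D3:**
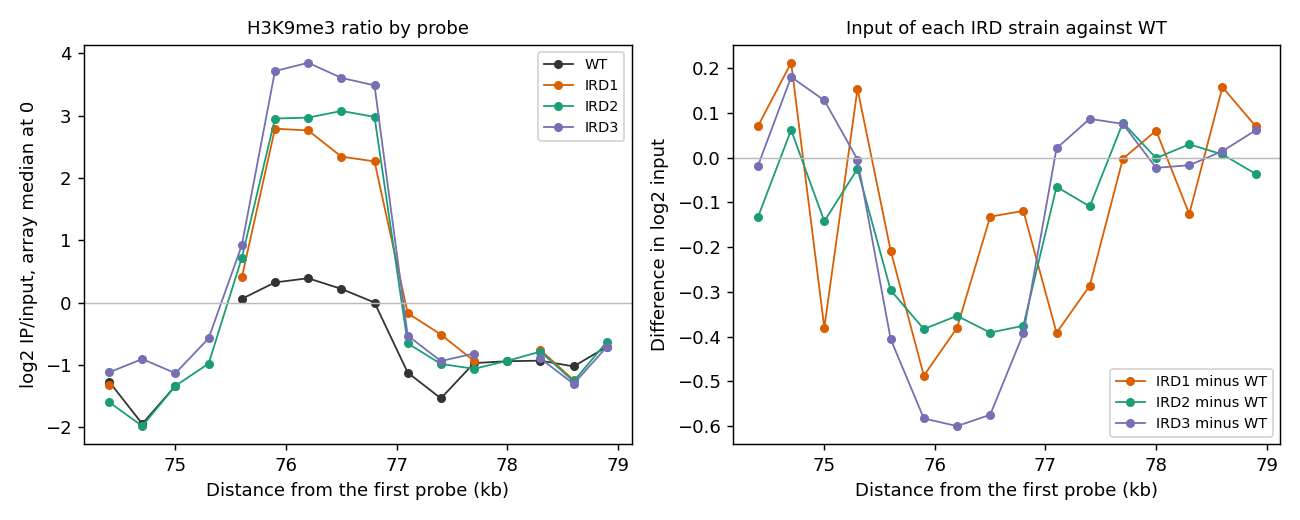
Left, H3K9me3 level (log2 of precipitated over input, array median at 0) by probe and strain around the inner peak, and right, log2 input of each IRD strain minus WT at the same probes, both against the distance from the first probe in kb. Gaps in a line are outlier spots. The 4 probes of the peak stand between 2.27 and 3.85 in the IRD strains and between 0.00 and 0.39 in WT, and their input is below that of WT in all 3 strains.

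Windows of 1.5 kb with at least 3 usable probes on both arrays were also compared, and 1 at the peak was counted as gained. The rule asked for a median of 1 or more on one array, a median below 1 on the other, and a gap of 1 or more between them. In IRD1, 1 of 54 windows was gained, against 0.158% of all windows. In IRD2 it was 1 of 56, against 0.168%, and in IRD3 1 of 53, against 0.254%. The windows from 15000 to 19500, just past the edge, held fewer than 3 probes and were not compared, and the windows of the enriched zone could not be gained because WT was already above 1. Lost were 0 windows in each strain, against 0.0365%, 0.0601% and 0.0121%. The gained window was that from 76500 to 78000 in all 3 strains, with medians of 0.00 (WT), 2.27 (IRD1), 2.97 (IRD2) and 3.49 (IRD3). It held 5 probes, 3 of them with suffix f. Without probes of suffix f or m it kept fewer than 3 probes and could not be called, and no other window was gained in any strain. With loess 2 (IRD1), 0 (IRD2) and 2 (IRD3) windows were gained and 1 was lost in IRD2, and with windows of 3 kb 2 were gained in IRD1.

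Inward of the peak the mark was low in all 4 strains. The 48 probes from 77400 to 92400 had a median of -1.06 (WT), -0.92 (IRD1), -1.09 (IRD2) and -1.06 (IRD3). The 22 probes from 92700 to 99900 had -0.92 (WT), -0.93 (IRD1), -0.88 (IRD2) and -0.95 (IRD3). Their differences from WT were -0.10, 0.07 and -0.15. Above WT were 8 of 21 probes in IRD1, 14 of 21 in IRD2 and 6 of 20 in IRD3.

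The input of these last 22 probes was higher in every IRD strain. It had a median of 0.33 (WT), 1.55 (IRD1), 1.43 (IRD2) and 1.26 (IRD3). The median difference was 1.25 (0.81 to 1.70 over the probes) in IRD1, which is 2.37 times the WT input. It was 1.16 (0.98 to 1.74) in IRD2, or 2.23 times, and 0.94 (0.83 to 1.36) in IRD3, or 1.92 times. All 22 probes were higher in each strain, and the smallest single difference, 0.81, was more than 4 times the SD of the input difference. The precipitated signal was higher by much the same amount, by 1.16 (IRD1), 1.23 (IRD2) and 0.92 (IRD3).

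No other probes of the subtelomere showed this. Input was higher than in WT by at least 0.5 at these 22 probes and nowhere else among the 275, against 0.132% of all genomic probes in IRD1, 0.205% in IRD2 and 0.149% in IRD3. From 92400 to 92700 input stepped up by 1.5 (WT), 2.67 (IRD1), 2.48 (IRD2) and 2.35 (IRD3). The stretch went on past the limit of the region to 102600, with 27 probes in all and median differences of 1.24, 1.16 and 0.95. All 27 had suffix f or m. The next 11 probes, from 103500 to 106500, had neither suffix, and their input differed by 0.14, 0.07 and 0.11. By the rule for runs given above, with a limit of 0.5 and the opposite sign, this was the 1 run of higher input in the genome. The limits of the stretch coincided with those of the probe class, and whether more copies of this DNA are present in the IRD strains was not tested.

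The difference in level over this stretch depended on the processing. Normexp was applied to median spot signals without the dye normalization, and loess to the processed signals. Which step of the processing shifted the values was not tested. With normexp the difference from WT was -0.71 (IRD1), -0.46 (IRD2) and -0.74 (IRD3), and with loess -0.59, -0.66 and -0.68. The input difference itself moved by less than its SD over all probes when it was taken from median spot intensity minus local background.

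**Figure D4:**
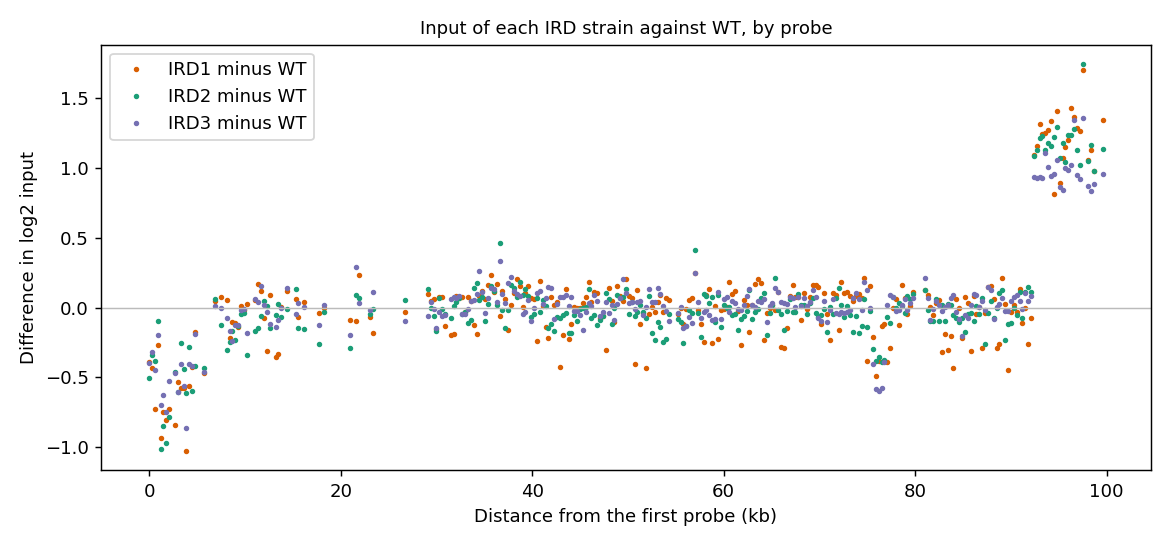
Log2 input of each IRD strain minus WT for every probe against the distance from the first probe in kb, 1 colour per strain. Points lie below 0 over the first 5 kb and at the peak near 76 kb, around 0 elsewhere, and near 1 over the last 22 probes.

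Compared with the other 3 ends of chromosomes 1 and 2, this end had a short enriched zone whose reach at a threshold of 2 was nearly the same in all strains without loess or normexp. At a threshold of 2 the reach at the right end of chromosome 2 was also short and also alike, at 11.7 kb (WT), 11.7 kb (IRD1), 12 kb (IRD2) and 11.7 kb (IRD3). At the left end of chromosome 1 it was 36.3 kb in WT and 36.3 to 36.6 kb in the IRD strains. At the right end of chromosome 1 it was 34.2 kb (WT), 46.2 kb (IRD1), 48.9 kb (IRD2) and 49.2 kb (IRD3). These distances are counted from the end of the tiling, which may lie at a different distance from the telomere at each end. The last probe of chromosome 2 lay at 4510500, and in the reference assembly, of another build, this chromosome has 4539804 bases. Lengths in kb are therefore not matched between ends. These are single arrays, and the difference between ends was not tested.

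In the outer 20 kb the WT median was 3.93 here, 6.20 at the left end of chromosome 1, 4.58 at its right end and 2.63 at the right end of chromosome 2. The differences of the IRD strains here were 0.64, 0.65 and 0.50, close to the 0.64, 0.81 and 0.65 of the right end of chromosome 2. From 40 to 60 kb the differences here were 0.02, -0.15 and 0.02, against 0.98, 1.83 and 1.93 at the right end of chromosome 1. From 60 to 100 kb all 4 ends lay below the array median. At 80 to 100 kb the WT level was -1.0 here, -0.86 at the left and -0.48 at the right end of chromosome 1, and -0.71 at the right end of chromosome 2. It was lowest at the left end of chromosome 2.

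**Figure D5:**
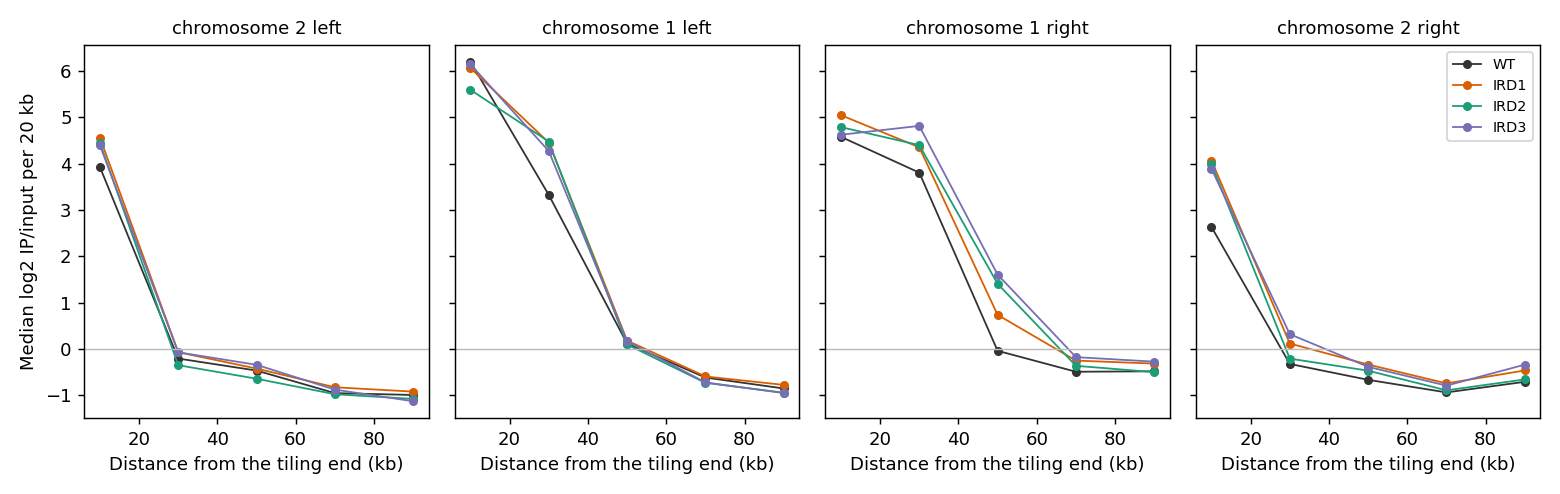
Median H3K9me3 level (log2 of precipitated over input, array median at 0) in steps of 20 kb from the end of the tiling, for the left end of chromosome 2 and the 3 other ends of chromosomes 1 and 2, 1 line per strain. At the left end of chromosome 2 all 4 lines are below 0 from 20 kb on, whereas at the right end of chromosome 1 the IRD lines lie between 0.73 and 1.60 at 40 to 60 kb.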

How the data were processed

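Each of the 4 arrays was 1 sample, and all were on 1 slide and in 1 scan per the file headers. The authors took each spot's intensity with Agilent Feature Extraction 12.0.3.1, which subtracts background and normalizes the dyes, as the file headers state. On the IRD1 array the headers lack the multiplicative detrending of the green channel that the others have. The deposited log10 ratio per spot was not used. The authors' deposited value table holds the linear ratio of red over green, which differed from the processed intensities by at most 0.013 on the log2 scale. Its column medians were 1.08 (WT), 1.02 (IRD1), 1.09 (IRD2) and 1.04 (IRD3).

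The level was log2 of processed red over green, centred on the median of the genomic probes, without loess. The 1417 control spots, outlier spots and spots whose input was not well above background were left out of levels, while input was read at all 275 probes. No other floor was set on input. Python 3.11.15, numpy 2.4.6, pandas 2.3.3, matplotlib 3.10.9 and, for normexp and loess, limma 3.58.1 were used, and scripts were tested on simulated data.

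The members, zones, stretches and rules were chosen with earlier results of these data known. Named regions were the windows gained or lost, 5 probes on each side of the inner edge, probes that differed by at least 1 in all 3 comparisons, and the 3 highest and 3 lowest WT probes of the outer 20 kb. Probes without input were also to be named, and there were 0. Stretches, the single probes at 36900, 55500, 57300 and other positions that this rule does not cover were chosen after their values were seen. Alternatives were normexp, loess, scaling to high probes, the value table, means, outlier spots kept, a filter on both channels, other window and running-median widths, and leaving out suffixes f and m. Sharing of the mark between repeated copies could not be resolved.

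The reference assembly, ASM294v3, was set against the input by GC content. The best match needed a shift of -150 bp from 29400 to 92400 and of -800 bp farther in, so the builds differ and neither genes nor sequences were taken from it.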

Additional observations from a re-analysis of the deposited data

How the results depend on the processing

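The number of arrays, 1 per strain, limits every value, and no array could be left out in turn. No paired analysis was possible because each strain has 1 array and the labels number no replicates. All 275 probes had input well above background. A level counted as moved when it shifted by more than the noise SD of a single probe. For a difference the limit was the SD of a probe's difference, for a reach 0.3 kb and for a count 1.5 times. Of 548 values under an alternative, 460 stayed within these limits, 88 moved and 0 that were at least 1 in size turned in sign. The values of the stretches, and input from median spot intensity minus background, were alternatives added after the data were seen. The cause of the shifts was not tested.

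The value table (68 values), the filter on both channels (68), running medians of 3 and 9 probes (12 each) and the other input source (15) moved 0 values.

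With loess 43 of 68 values moved. At 0 to 15 kb the levels became 2.0 (WT), 3.04 (IRD1), 1.28 (IRD2) and 2.32 (IRD3), and the IRD2 difference -0.59, against 0.38. At 15 to 20 kb they were -0.32, 0.64, 0.89 and 0.35, and the IRD3 difference 0.67. At 20 to 75 kb WT, IRD2 and IRD3 had -0.076, -0.18 and -0.084. At 75 to 80 kb the 4 levels were -0.41, 0.38, -0.16 and 0.082, and at 80 to 100 kb WT and IRD3 had -0.65 and -0.84. Reach at a threshold of 1 was 15.9 kb (IRD1) and 3.6 kb (IRD2). At 2 it was 0.0 kb (WT), 0.3 kb (IRD2) and 5.1 kb (IRD3), and at 3 it was 4.5 kb (IRD1) and 0.0 kb for the other strains. Windows gained were 2 (IRD1), 0 (IRD2) and 2 (IRD3), with 1 lost in IRD2. By stretch, IRD2 and IRD3 differed from WT by 0.052 and 1.0 at 300 to 5100, IRD2 by -0.93 at 6000 to 15600, and IRD2 and IRD3 by 1.30 and 0.77 at 15900 to 18600. The 3 differences were 1.81, 1.68 and 2.49 at 76200 to 77100, and -0.59, -0.66 and -0.68 at 92700 to 99900.

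With normexp 15 of 68 moved. The WT level at 0 to 15 kb was 3.69, the levels at 15 to 20 kb were 1.26 (IRD2) and 0.68 (IRD3), and the IRD3 difference at 75 to 80 kb was 0.14. WT reached 4.2 kb at a threshold of 2 and 0.6 kb at 3, and IRD2 16.5 kb at 1. By stretch the differences were 2.61, 2.36 and 1.92 at 300 to 5100, 3.08 (IRD2) and 3.83 (IRD3) at 76200 to 77100, and -0.71, -0.46 and -0.74 at 92700 to 99900.

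With means in place of medians 17 of 68 moved. At 0 to 15 kb the WT level was 3.66 and the differences 0.97, 0.93 and 0.69. At 15 to 20 kb the 4 levels were 0.61, 1.59, 1.91 and 1.49. At 75 to 80 kb the IRD levels were 0.44, 0.0205 and 0.37, and the differences 1.0, 0.81 and 1.14. Reach at a threshold of 1 was 18.0 kb (IRD2) and 16.5 kb (IRD3), and at 3 it was 14.7 kb (IRD3).

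With outlier spots kept 2 of 68 moved, the IRD3 difference at 75 to 80 kb (0.22) and its reach at a threshold of 1 (16.5 kb). With arrays scaled at high probes 4 of 68 moved, all in IRD2: the level (4.95) and difference (0.81) at 0 to 15 kb, and the differences at 300 to 5100 (2.43) and 6000 to 15600 (0.58). With windows of 3 kb 1 of 6 moved, to 2 gained in IRD1. Without suffixes f and m 6 of 27 moved. At 75 to 80 kb the IRD1 level was -0.74, and the differences were 0.26 (IRD1) and 0.15 (IRD3). Windows gained were then 0 in each strain, but the window at the peak kept fewer than 3 probes and could not be called. This alternative left 0 probes in the outer 20 kb, so it gave no value for the enriched zone, its edge or its reach.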
